A study of Drosophila ananassae and Drosophila erecta and Drosophila sechellia with 40 samples.

Results

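The genes described here are those whose antennal-disc transcript level in early pupae set the 2 host-plant specialists apart from 3 generalists. The specialists are D. sechellia and D. erecta, and the generalists are D. simulans, D. ananassae and D. virilis. A gene entered the comparison at p8, 8 hours after puparium formation (10 hours in D. virilis), when its mean normalized read count was above 0 in all 5 species and above 50 in at least one. It was kept when the lower specialist mean was at least 2-fold above the highest generalist mean, or the higher specialist mean at least 2-fold below the lowest generalist mean. By this rule 182 of 7102 genes were kept. They comprised 120 genes higher in both specialists (1.69% of the genes compared) and 62 genes lower in both (0.873%). The p8 means chose these genes, so their p8 values are a description and carry no test. The excess of higher genes depended on the minimum: with all 5 species above 50, 41 genes were higher and 39 lower. The term gap denotes the fold between the nearest specialist and generalist means, and apart denotes a gap of 2-fold or more.

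Each species with libraries here was a stock-center strain reared on cornmeal medium at 20°C, and no genotype or treatment was varied within a species. For the pupal stages, the study's methods state that white pupae of D. sechellia, D. erecta and D. virilis were aged in a warmer incubator until dissection. The D. virilis times were set with priority given to matching antennal morphology. For D. simulans and D. ananassae these methods name no ageing, and the hours given here are those of the stage names. The study describes all samples as matched by stage. RNA of about 70 pooled animals per sample gave 2 libraries per species and stage, or 10 libraries at p8 of 40 in all. The other stages were antennal discs of the third larval instar (3L), pupal antennae at 40 hours after puparium formation (p40, 48 hours in D. virilis), and adult antennae (AA, about 300 flies per pool). The 2 libraries of a species replicate that species and not an ecology. With 2 specialist and 3 generalist species, an exact permutation over species cannot go below p = 0.1, so a level that these 2 species happen to share cannot be told apart from one that goes with specialization, which is on a different host plant in each. In addition, D. simulans is the sister species of D. sechellia, and D. virilis is a distant outgroup.

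The antennal disc is the epithelium that forms the adult antenna. Around puparium formation its patterned fields give rise to sensory organ precursors, from which olfactory receptor neurons (ORNs) and their support cells descend. At the same time, rising and falling ecdysone titers drive the disc to evert and to secrete pupal cuticle. Olfactory receptors (ORs) and ionotropic receptors (IRs) of the antenna are mostly switched on later in pupal life.

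The p8 libraries held 17767648 to 26658372 reads, and the 2 libraries of a species differed by a median of 0.099 to 0.27 on the absolute log2 scale. Of the 14 genes that mark the antennal disc, 14 were above 0 in all 5 species. Their summed level was 15994 to 18436 normalized reads in specialist libraries and 17152 to 30506 in generalist libraries. The share of genes with an even read count, which is high where both reads of each pair are counted, was 92.8% to 96.1% in specialist libraries, 77.4% to 83.1% in those of D. simulans and D. ananassae and 93.0% in those of D. virilis. Among the 3382 genes with even counts in all 4 D. simulans and D. ananassae libraries, 2.04% were higher and 0.798% lower by the rule, and the part of read counting in the remaining differences was not tested. Normalized reads are not divided by transcript length, so levels are not compared between genes. Within a gene, a fold between species includes any difference between their gene models. In bulk tissue, fewer cells that express a gene and less RNA per cell cannot be told apart.

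The largest gaps were found among genes higher in both specialists. Of the 120, 46 had a gap of 4-fold or more and 17 of 8-fold or more, with a median of 3.13-fold. Of the 62 lower genes, 8 had a gap of 4-fold or more and 1 of 8-fold or more, with a median of 2.50-fold. The groups did not overlap in any single library for 114 of 120 higher and 60 of 62 lower genes. The generalist nearest to the specialists was D. simulans for 47, D. ananassae for 36 and D. virilis for 37 of the higher genes. For the lower genes it was D. simulans for 25, D. ananassae for 9 and D. virilis for 28. The median absolute log2 ratio of D. sechellia to D. erecta was 0.50 for the higher and 0.39 for the lower genes, against 0.37 over all 7102 genes. At the threshold, Ndae1 lay just inside with a gap of 2.001-fold and unc-104 just outside with 1.997-fold among higher genes. Among lower genes, vkg lay just inside with 2.03-fold and Spec2 just outside with 1.997-fold. Another 38 genes had a gap of 1.8- to 2-fold upwards and 24 downwards.

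Among the 120 higher genes, 54 were also apart in the same direction at 3L, p40 or in AA, and 66 were p8-only. Among the 62 lower genes, 17 were also apart at another stage and 45 were p8-only. A p8-only gene can be one that was compared elsewhere and not apart, or one that could not be compared because a species was at 0 or no species exceeded 50. Of the 66 higher p8-only genes, 27 were compared at all 3 other stages, 27 at 1 or 2 of them and 12 at none. Of the 45 lower ones, 32 were compared at all 3 and 13 at 1 or 2.

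**Figure D1:**
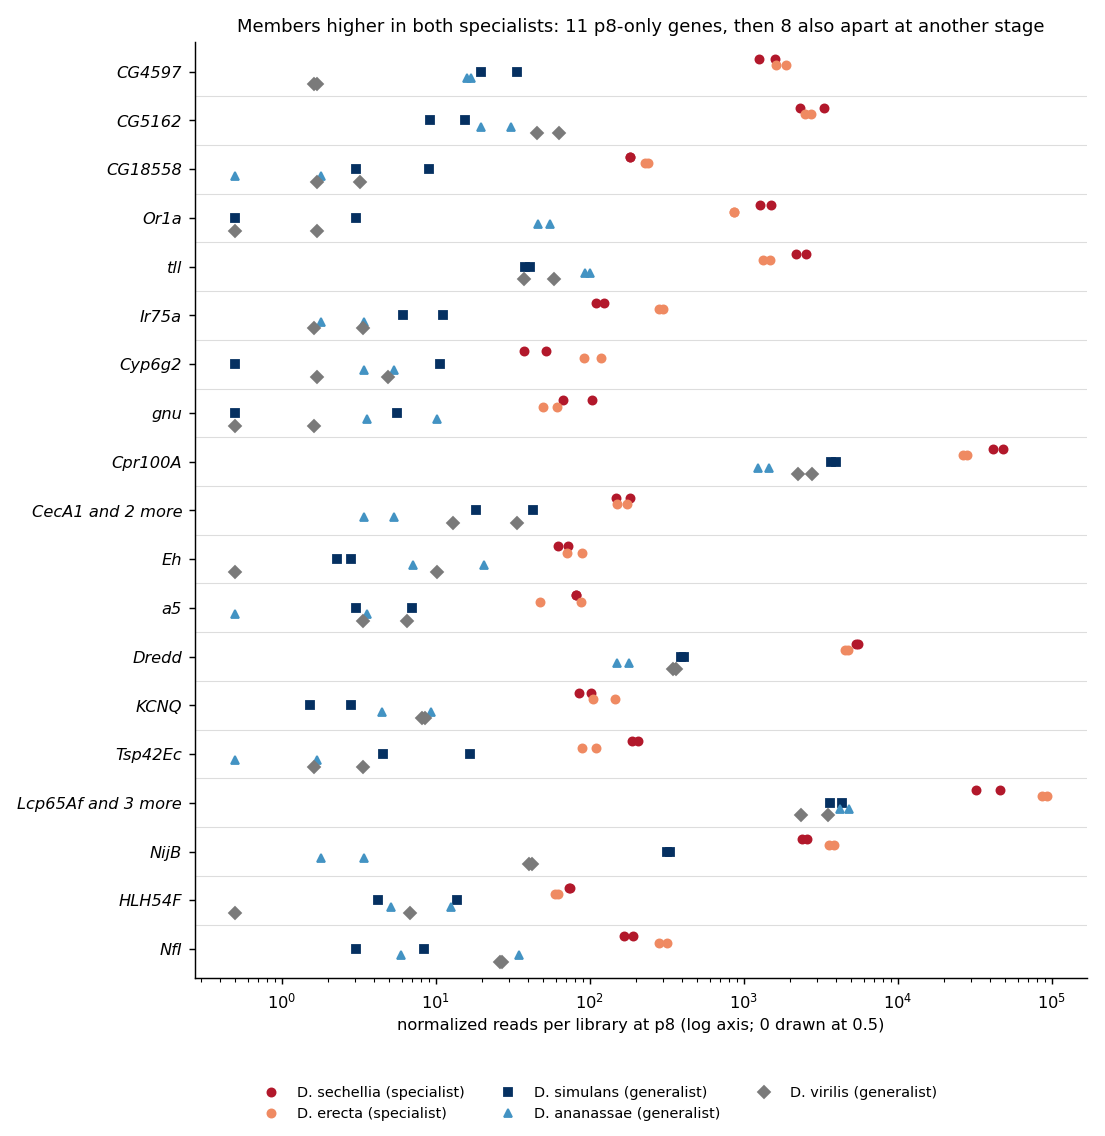
Normalized reads per library at p8 (log axis) for named genes higher in both specialists, with the 11 p8-only genes at the top and 8 genes also apart at another stage below. Each point is 1 of the 2 libraries of a species, the circles being specialists, and a library at 0 is drawn near the left edge; in each gene drawn, every specialist library lay above every generalist library.

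The p8-only genes with the largest gaps carried CG numbers as names. CG4597 had, in normalized reads of the single libraries, 1264 and 1586 for D. sechellia, 1632 and 1877 for D. erecta, against 19.6 and 33.5 for D. simulans, 17.0 and 16.1 for D. ananassae and 1.62 and 1.69 for D. virilis, a gap of 53.7-fold. CG5162 had 2313 and 3336 for D. sechellia, 2510.2 and 2749 for D. erecta, against 15.4 and 9.14 for D. simulans, 30.7 and 19.7 for D. ananassae and 63.3 and 45.7 for D. virilis, a gap of 48.2-fold. CG18558 had 181 and 183 for D. sechellia, 239 and 229 for D. erecta, against 9.09 and 3.05 for D. simulans, 0 and 1.79 for D. ananassae and 3.25 and 1.69 for D. virilis, a gap of 30.1-fold that rested on 17 reads in D. simulans. In none of these genes did a generalist library come near a specialist one. CG4597 and CG18558 were not compared at any other stage, whereas CG5162 was compared at p40 and in AA without being apart.

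Chemosensory genes were among the higher members. Of 27 genes with receptor or odorant-binding protein names that were compared at p8, 3 were higher by the rule and 0 lower, against 1.69% and 0.873% of all genes compared. The median log2 difference over the 27 was 1.47, against 0.0061 over all 7102 genes. This median is a description, since the minimum could be met in 1 species alone. Ir76b met it only in D. erecta, at 197, and Ir7g only in D. virilis, at 131. Or1a, a receptor of larval ORNs in D. melanogaster, had 1271 and 1503 for D. sechellia, 869 and 859.9 for D. erecta, against 0 and 3.05 for D. simulans, 46.0 and 55.4 for D. ananassae and 0 and 1.69 for D. virilis, a gap of 17.0-fold. Its generalist levels spanned 0 in one library each of D. simulans and D. virilis to a low but clear level in D. ananassae. Or1a could not be compared at any other stage by the rule, and in AA its means were 1.49 in D. sechellia and 5.75 in D. erecta, against 1.28 in D. simulans, 1.41 in D. ananassae and 0.807 in D. virilis. Ir75a, an antennal IR that responds to acetic acid in D. melanogaster, had 124 and 110.5 for D. sechellia, 301 and 281 for D. erecta, against 11.2 and 6.09 for D. simulans, 3.41 and 1.79 for D. ananassae and 1.62 and 3.38 for D. virilis at p8, a gap of 13.6-fold. At p40 its level was 145 in D. sechellia and 38.4 in D. erecta, against 47.7 in D. simulans, 14.4 in D. ananassae and 16.8 in D. virilis, with overlapping groups, and in adult antennae it was 3678 in D. sechellia and 2716 in D. erecta, against 3251 in D. simulans, 1859 in D. ananassae and 1951 in D. virilis. Obp19d, an odorant-binding protein, had 265 and 323 for D. sechellia, 474 and 250.1 for D. erecta, against 29.4 and 25.9 for D. simulans, 8.52 and 14.3 for D. ananassae and 138 and 79.5 for D. virilis at p8, and was also apart at 3L with means of 271 in D. sechellia and 373 in D. erecta, against 36.0 in D. simulans, 3.99 in D. ananassae and 73.1 in D. virilis. For tests at the other stages, limma (a linear model fitted to all genes) set the mean of the specialist species against that of the generalist species on the log2 scale, with Benjamini-Hochberg adjusted p-values. Over the chemosensory list it called 23 of 41 tested genes higher and 4 lower at p40, and 41 of 77 higher and 15 lower in AA, against 35.2% higher and 32.2% lower of all genes tested at p40 and 33.5% and 32.4% in AA.

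By the rule, 1.69% of all genes compared were higher and 0.873% lower. Of 17 antennal and ORN transcription factors that were compared, 1, onecut, was a member. It had 299.8 and 246 for D. sechellia, 327 and 265 for D. erecta, against 138 and 101 for D. simulans, 106 and 166 for D. ananassae and 133 and 113 for D. virilis at p8, a gap of 2.00-fold at the edge of the threshold, and at p40 its means were 1149 in D. sechellia and 1192 in D. erecta, against 841 in D. simulans, 735 in D. ananassae and 988 in D. virilis. With 1 library left out its gap fell to as little as 1.64-fold. None of 14 antennal identity genes, 17 proneural and sensory precursor genes and 25 Notch pathway genes was a member in either direction. Outside these lists, tll, an orphan nuclear receptor of the embryonic termini and the visual system, had 2171 and 2554 for D. sechellia, 1331 and 1474 for D. erecta, against 37.8 and 41.1 for D. simulans, 93.7 and 100.1 for D. ananassae and 58.4 and 37.2 for D. virilis, a gap of 14.5-fold. The lowest tll value in a specialist library was above the highest in any generalist library, while at 3L its means were 5.78 in D. sechellia and 11.7 in D. erecta, against 40.6 in D. simulans, 4.98 in D. ananassae and 17.2 in D. virilis and below the minimum in every species. HLH54F, a bHLH factor of visceral muscle founders, had 59.8 to 74.0 in the 4 specialist libraries, against 0 to 13.7 in the 6 generalist libraries, and was also apart at p40. NfI, a nuclear factor I protein, had 167 to 319 in the 4 specialist libraries, against 3.05 to 34.8 in the 6 generalist libraries, and was also apart at 3L and p40. Other cell types of the head discs were followed by their markers. Of 10 eye disc and photoreceptor markers compared, 0 were higher or lower by the rule, and their median log2 difference was 0.51, with Rh6 at -0.65 and inaD at 1.39 as the extremes. Of 5 glial and 8 neuron markers compared, 0 were members, with medians of 0.31 and -0.66. Summed over the 15 of 24 eye markers above 0 in all 5 species, they were at 8285 to 11523 normalized reads in specialist libraries and 5396 to 7007 in generalist libraries, without overlap. In D. simulans so, sev, Rh3, norpA, trpl and ninaC were at 0, as were boss, Rh3 and Rh5 in D. sechellia, Rh3 in D. erecta and Rh3 and rdgA in D. ananassae. Here and below, a marker at 0 in a species may be a missing ortholog rather than an unexpressed gene. The 6 glial markers above 0 in all species summed to 7242 to 7848 in specialist libraries and 5545 to 7009 in generalist libraries, with gcm, moody, loco and pnt at 0 in D. simulans, pnt and alrm in D. ananassae and alrm in D. virilis. The 9 neuron markers above 0 in all species summed to 3390 to 4366 in specialist libraries and 3489 to 10915 in generalist libraries, with brp, cac, para, nrv3 and Syn at 0 in D. simulans. The part of these cell types in the tll and onecut differences was not tested.

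**Figure D2:**
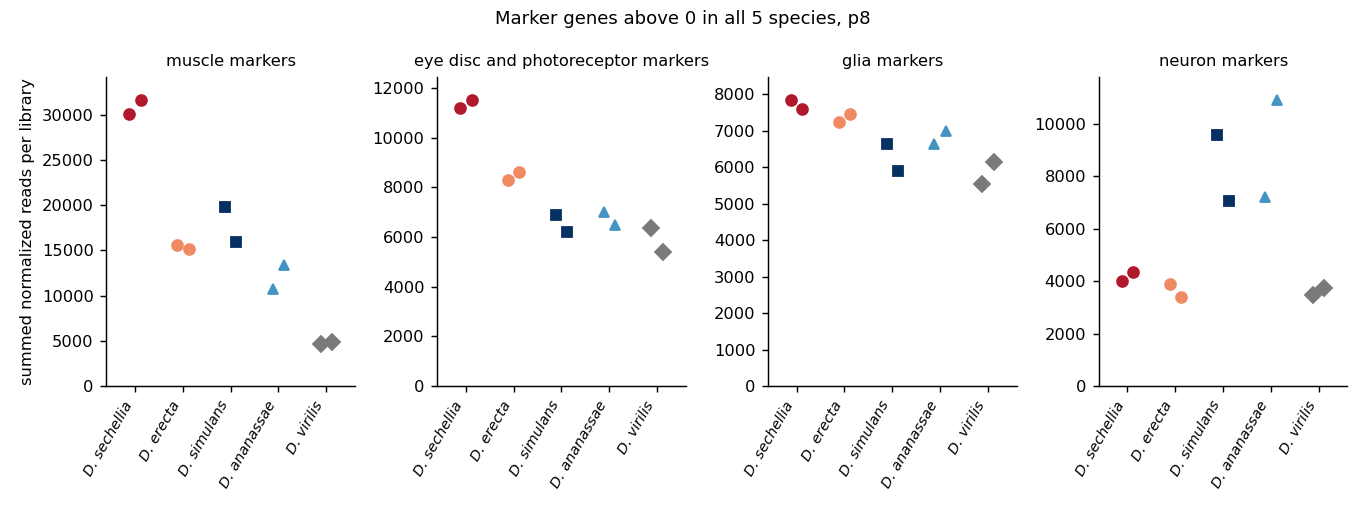
Summed normalized reads per p8 library over marker genes above 0 in all 5 species, for muscle, eye disc and photoreceptors, glia and neurons. Each point is 1 library, with specialists at the left; eye and glial sums did not overlap between the groups, and muscle and neuron sums did.

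Muscle genes were the cell-type markers with most members. Of 15 muscle markers compared at p8, 3 were higher by the rule and 0 lower, against 1.69% higher and 0.873% lower of all genes compared. The median log2 difference of the 15 was 2.00, against 0.0061 over all genes, a description of p8 and no test. That difference averages the specialists, and D. erecta did not share it throughout. In Mlc1, Mlc2, Mp20, Prm, Tm2 and wupA the D. erecta mean lay below that of D. ananassae. In the 3 members and in TpnC73F and up it lay above every generalist. Mhc, muscle myosin heavy chain, had 1262 and 1549 for D. sechellia, 165 and 112 for D. erecta, against 8.39 and 7.61 for D. simulans, 2.56 and 39.3 for D. ananassae and 39.0 and 32.2 for D. virilis, a gap of 3.89-fold. bt, the projectin gene, had 75.9 and 117 for D. sechellia, 69.7 and 91.0 for D. erecta, against 22.4 and 15.2 for D. simulans, 13.6 and 53.6 for D. ananassae and 11.4 and 20.3 for D. virilis, and Mf, encoding myofilin, had 76.5 to 223 in the 4 specialist libraries, against 2.28 to 52.7 in the 6 generalist libraries. With 1 library left out, the log2 gap, which is 1 at the threshold, fell to as little as 0.58 for bt and 0.69 for Mf. D. sechellia had the highest Mhc level by far, and D. erecta lay nearer to the generalists than to D. sechellia. Mef2 and twi, factors of myoblasts, did not follow: Mef2 means were 720.3 in D. sechellia and 824 in D. erecta, against 905 in D. simulans, 1025 in D. ananassae and 600.4 in D. virilis, and twi means were 295 in D. sechellia and 264 in D. erecta, against 262 in D. simulans, 411 in D. ananassae and 347 in D. virilis. The summed level of the 17 muscle markers above 0 in all species was 15197 to 31620 in specialist libraries and 4609 to 19804 in generalist libraries, with both D. simulans libraries above those of D. erecta. Act79B, sls, TpnC41C and Msp300 were at 0 in D. simulans, and sls, TpnC47D and Msp300 in D. ananassae. At p40, 13 of 15 muscle markers tested were higher by limma and 1 lower, against 35.2% and 32.2% of all genes tested. In AA 11 of 15 were higher and 2 lower, against 33.5% and 32.4%, and at 3L 4 of 16 were higher and 9 lower, where 34.9% of all genes tested were higher and 33.0% lower. Mhc was also apart at p40, with 11000 in D. sechellia and 5971 in D. erecta, against 263 in D. simulans, 212 in D. ananassae and 279.9 in D. virilis, a log2 difference of 5.21 ± 0.48 (SE, adjusted p = 1.3e-04). The part of muscle tissue in these differences was not tested.

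Cuticle proteins were the functional list with most members, and they ran in both directions. Of 57 cuticle genes compared, 7 were higher by the rule and 2 lower, against 1.69% higher and 0.873% lower of all genes compared. The median log2 difference of the 57 was 1.11, against 0.0061 over all genes, again a description and no test. Cpr100A had 41699.9 and 48214 for D. sechellia, 26683 and 28010.4 for D. erecta, against 3984 and 3688 for D. simulans, 1465 and 1233 for D. ananassae and 2771 and 2269 for D. virilis, a gap of 7.13-fold. The value shared by Lcp65Af, Lcp65Ag1, Lcp65Ag2 and Lcp65Ag3, whose reads the tables do not separate, was 32083 and 46071 for D. sechellia, 86864 and 93086 for D. erecta, against 3643 and 4329 for D. simulans, 4833 and 4217 for D. ananassae and 3516 and 2342 for D. virilis, a gap of 8.64-fold. In both, every specialist library lay well above every generalist library. Cpr65Au had 491 to 597 in the 4 specialist libraries, against 17.0 to 119.5 in the 6 generalist libraries, and the other higher cuticle genes were Cpr78Cc, Cpr47Eb, Cpr72Eb and Cpr65Ea with gaps of 4.49-fold, 2.60-fold, 2.37-fold and 2.04-fold. In the other direction, Cpr66D had 1247 and 1413 for D. sechellia, 261 and 318 for D. erecta, against 5424 and 6339 for D. simulans, 9817 and 8541 for D. ananassae and 3630.4 and 2366 for D. virilis, a gap of 2.25-fold, and Cpr78E had 24.1 to 56.3 in the 4 specialist libraries, against 63.0 to 543 in the 6 generalist libraries. With 1 library left out the gap fell to as little as 1.78-fold for Cpr66D and 1.57-fold for Cpr78E. Cpr66D was apart the opposite way at p40, where its means were 33678 in D. sechellia and 30379 in D. erecta, against 12047 in D. simulans, 7016 in D. ananassae and 1409.8 in D. virilis. The ecdysone-response list had 0 members among 21 genes compared. Single genes of that list varied widely between species: ImpE1, an ecdysone-inducible gene of disc eversion, had means of 3873 in D. sechellia and 909 in D. erecta, against 46245 in D. simulans, 48851 in D. ananassae and 4131 in D. virilis. Edg78E, a prepupal cuticle gene, had means of 222133 in D. sechellia and 237547 in D. erecta, against 75889.9 in D. simulans, 75031 in D. ananassae and 113499 in D. virilis. Low ImpE1 thus joined both specialists with D. virilis and not with D. simulans or D. ananassae. The part of developmental timing in the cuticle differences was not tested.

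The heat shock, immune and P450 lists had 1 higher member each, of 15, 11 and 30 genes compared, where 1.69% of all genes compared were higher. The value shared by CecA1, CecA2 and CecC, antimicrobial cecropins, was 148 to 181 in the 4 specialist libraries, against 3.41 to 42.6 in the 6 generalist libraries. It was the 1 member among 11 genes compared of the immune list, which leaves out Dredd, described below. The value shared by 6 Hsp70 names was 12058 and 1908 for D. sechellia, 539 and 302 for D. erecta, against 137 and 279 for D. simulans, 109 and 129 for D. ananassae and 114 and 37.2 for D. virilis, with 1 D. sechellia library far above the other and a gap as low as 1.45-fold with 1 library left out. Cyp6g2, a cytochrome P450 gene, had 37.5 to 118 in the 4 specialist libraries, against 0 to 10.7 in the 6 generalist libraries. It was the only member among the 30 genes compared whose names start with Cyp. That list leaves out spo and spok, P450 genes described below. The gap of Cyp6g2 was 8.38-fold and rested on 14 reads in D. simulans. At 3L and in AA the groups overlapped, with AA means of 1664 in D. sechellia and 652 in D. erecta, against 1312 in D. simulans, 267 in D. ananassae and 238 in D. virilis. gnu, an activator of the PNG kinase in early embryos, had 49.6 to 104 in the 4 specialist libraries, against 0 to 10.2 in the 6 generalist libraries, and Eh, the eclosion hormone gene, had 62.5 to 88.9 in the 4 specialist libraries, against 0 to 20.4 in the 6 generalist libraries. Both genes had few reads, and neither was compared at another stage.

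Genes higher at p8 and also apart at another stage included signaling and membrane proteins. The antennal protein gene a5, of the phosphatidylethanolamine-binding family, had 81.4 and 81.3 for D. sechellia, 87.7 and 47.5 for D. erecta, against 6.99 and 3.05 for D. simulans, 0 and 3.57 for D. ananassae and 6.49 and 3.38 for D. virilis at p8, a gap of 13.5-fold that rested on 14 reads in D. simulans. It was also apart at 3L and p40, whereas in AA its means were 142029 in D. sechellia and 94732 in D. erecta, against 69199 in D. simulans, 30375 in D. ananassae and 26984 in D. virilis, with a gap under 2-fold. KCNQ, a voltage-gated potassium channel, had 85.1 to 147 in the 4 specialist libraries, against 1.52 to 9.37 in the 6 generalist libraries at p8. At p40 KCNQ means were 449 in D. sechellia and 226 in D. erecta, against 9.49 in D. simulans, 19.4 in D. ananassae and 24.7 in D. virilis, a log2 difference of 4.33 ± 0.43 (SE, adjusted p = 1.7e-04). The p40 means helped to place KCNQ among the genes also apart at another stage, so this p-value is a description. Tsp42Ec, a tetraspanin, had 88.9 to 207 in the 4 specialist libraries, against 0 to 16.8 in the 6 generalist libraries, and was also apart at 3L. NijB, a ninjurin, had 2378 and 2575 for D. sechellia, 3570.0 and 3868 for D. erecta, against 316 and 330.5 for D. simulans, 3.41 and 1.79 for D. ananassae and 40.6 and 42.3 for D. virilis, and was also apart at 3L and in AA. dpr14, a synaptic-specificity immunoglobulin protein, had 91.0 to 121 in the 4 specialist libraries, against 0.699 to 27.1 in the 6 generalist libraries. It was the only member among 13 dpr, DIP and beat genes compared, where 1.69% of all genes compared were higher.

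A small set of genes kept its separation through development. Of the 182 genes, 12 were apart in the same direction at all 4 stages, 11 of them higher and 1 lower. yki, the transcriptional coactivator of the Hippo growth pathway, had 7979 and 8216 for D. sechellia, 8794 and 9529 for D. erecta, against 1246 and 1183 for D. simulans, 1341 and 1251 for D. ananassae and 1265 and 1305 for D. virilis at p8, a gap of 6.25-fold. The gaps of yki were 5.92-fold at 3L, 2.81-fold at p40 and 2.81-fold in AA, and its log2 difference was 1.93 ± 0.07 (SE, adjusted p = 3.7e-06) in AA (its 3L libraries were not resolved). Dredd, the caspase of the Imd immune pathway, had 5348 and 5556 for D. sechellia, 4534 and 4736 for D. erecta, against 393 and 410.4 for D. simulans, 181 and 150.1 for D. ananassae and 347 and 366 for D. virilis at p8, a gap of 11.5-fold. In AA the gap of Dredd was 3.00-fold, and its log2 difference was 2.98 ± 0.09 (SE, adjusted p = 2.1e-06). Both genes were named for being apart at all 4 stages. Their AA values thus helped to choose them, and these p-values are a description.

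CG15528 had 3483 and 3363 for D. sechellia, 3281 and 3185 for D. erecta, against 20.3 and 18.3 for D. simulans, 1.70 and 5.36 for D. ananassae and 211 and 137 for D. virilis at p8 and a gap of 18.6-fold, against 3.62-fold in AA. The value shared by CG14205 and CG14219 had a gap of 13.9-fold, and its 2 D. virilis libraries differed, at 1.62 and 157 normalized reads. klar, a nuclear-envelope and cargo-transport protein gene, had a gap of 4.23-fold at p8 although its D. ananassae libraries differed, at 438 and 3762. MFS16, a transporter of the major facilitator superfamily, fig and Rcd6 had gaps of 4.75-fold, 5.28-fold and 3.11-fold. Set1, a histone H3K4 methyltransferase, Unc-13-4B, a Munc13-family protein, and the value shared by spo and spok, P450 enzymes of ecdysone synthesis, had gaps of 2.97-fold, 2.78-fold and 2.61-fold. The single lower gene, CG42232, had 925 and 1042 for D. sechellia, 1056 and 1027 for D. erecta, against 4493 and 3391 for D. simulans, 6094 and 5215 for D. ananassae and 4219 and 4579 for D. virilis at p8, a gap of 3.78-fold, and its log2 difference was -1.78 ± 0.09 (SE, adjusted p = 1.0e-05) at 3L and -2.92 ± 0.13 (SE, adjusted p = 9.9e-06) at p40. These stages helped to choose CG42232, so its p-values are a description.

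**Figure D3:**
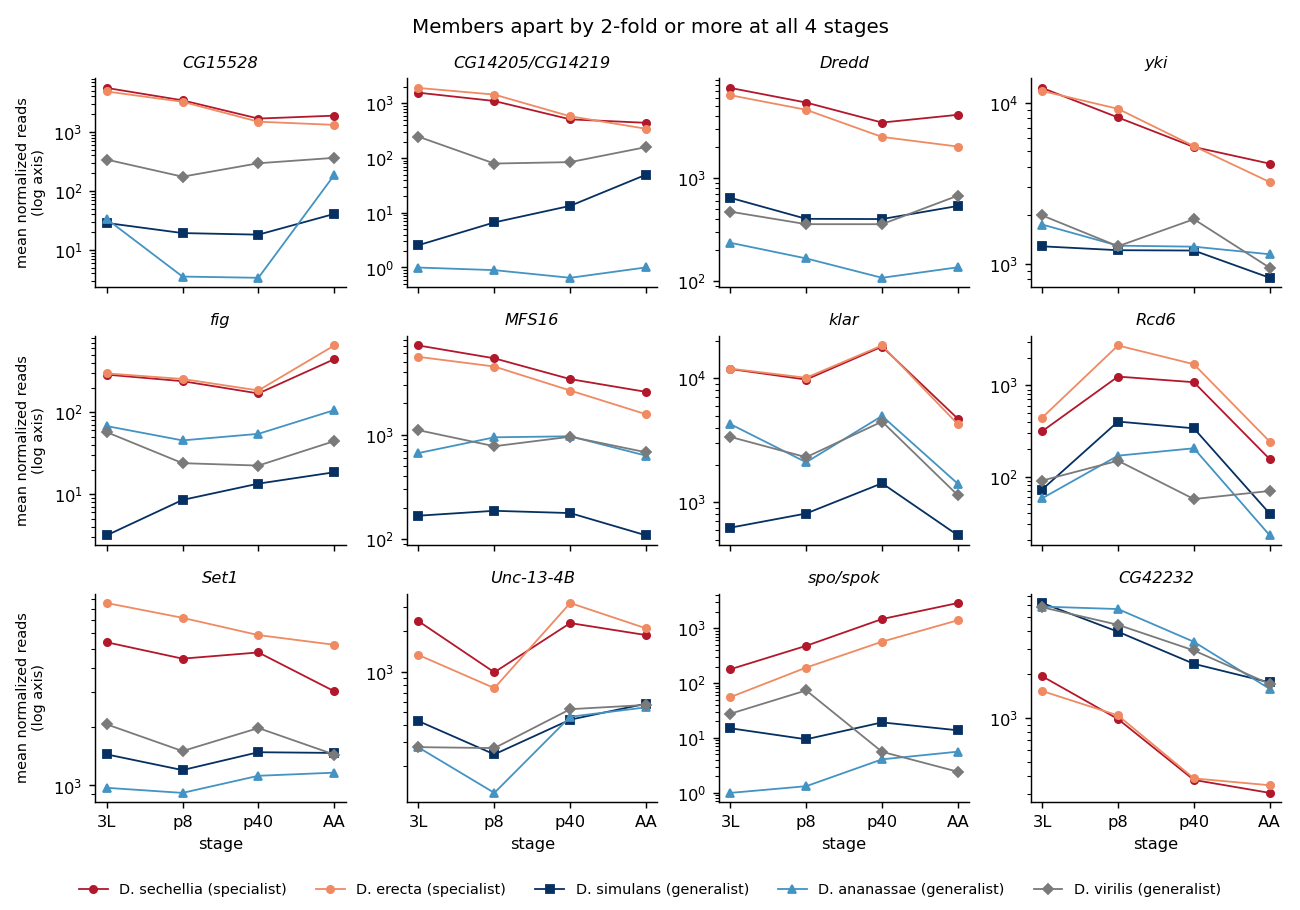
Mean normalized reads (log axis) at 3L, p8, p40 and in AA for the 12 genes apart by 2-fold or more at all 4 stages. Each line is 1 species, the red and orange lines being specialists; in 11 panels the specialist lines run above the generalist lines, and in the CG42232 panel they run below.

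Genes lower in both specialists at p8 were mostly p8-only. The largest gap was that of CG5391, with 3.70 and 2.08 for D. sechellia, 1.99 and 0 for D. erecta, against 108 and 116 for D. simulans, 68.2 and 73.3 for D. ananassae and 17.9 and 42.3 for D. virilis, a gap of 10.4-fold that rested on 6 reads in D. sechellia. yellow-e, of the Yellow protein family, had 85.1 and 75.1 for D. sechellia, 35.9 and 41.3 for D. erecta, against 525 and 618 for D. simulans, 508 and 522 for D. ananassae and 5817 and 5133 for D. virilis, a gap of 6.43-fold, with D. virilis far above the other generalists. CG14406 was at 0 to 3.70 in the 4 specialist libraries, against 8.52 to 1434 in the 6 generalist libraries, a gap of 5.11-fold resting on 4 reads in D. sechellia. Ance-5, an angiotensin-converting enzyme relative, had 3.70 to 10.4 in the 4 specialist libraries, against 21.1 to 149 in the 6 generalist libraries, and Drip, an aquaporin, had 8.27 to 27.1 in the 4 specialist libraries, against 54.5 to 164 in the 6 generalist libraries. Both genes had few reads at p8, and at p40 Drip reached 5873 in D. sechellia and 8325 in D. erecta, against 6038 in D. simulans, 1253 in D. ananassae and 39.1 in D. virilis.

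Regulators and secreted proteins were among the other lower p8-only genes. chrb, an inhibitor of TORC1 signaling induced by stress, had 601 and 621 for D. sechellia, 552 and 531 for D. erecta, against 4329.6 and 3926 for D. simulans, 5409 and 8627 for D. ananassae and 2344 and 2506 for D. virilis, a gap of 3.97-fold. Both specialists were alike, and the nearest generalist was D. virilis. At 3L and p40 chrb was not apart by 2-fold, but its log2 difference was -1.98 ± 0.07 (SE, adjusted p = 3.8e-06) and -2.06 ± 0.13 (SE, adjusted p = 3.3e-05). mas, a serine protease homologue of the extracellular matrix, had 1295 and 1049 for D. sechellia, 952 and 1007 for D. erecta, against 4845 and 2994 for D. simulans, 4248 and 5896 for D. ananassae and 3832 and 4126 for D. virilis. At 3L the order of mas was the reverse, without overlap of the species means, with 2460.4 in D. sechellia and 3594 in D. erecta, against 1924 in D. simulans, 1377 in D. ananassae and 1922 in D. virilis. Pxd, a secreted peroxidase, had 15.9 to 62.9 in the 4 specialist libraries, against 157 to 29376 in the 6 generalist libraries, where D. virilis alone held the highest values. Pvf3, a PDGF- and VEGF-related ligand, had 57.8 to 152 in the 4 specialist libraries, against 335 to 1052 in the 6 generalist libraries. slbo, a C/EBP factor of migrating border cells, had 246 and 281 for D. sechellia, 286 and 272 for D. erecta, against 677 and 797 for D. simulans, 1230.3 and 1286 for D. ananassae and 650.3 and 863 for D. virilis, a gap of 2.64-fold. bi, the T-box factor downstream of Dpp signaling, was the only member among 19 Hedgehog, Wingless and Dpp genes, where 0.873% of all genes compared were lower. It had 413 and 356 for D. sechellia, 363 and 413 for D. erecta, against 1137 and 902 for D. simulans, 1406 and 1865 for D. ananassae and 912 and 999 for D. virilis. The log2 difference of bi was -1.35 ± 0.09 (SE, adjusted p = 3.1e-05) at 3L, -0.81 ± 0.09 (SE, adjusted p = 2.9e-04) at p40 and -1.80 ± 0.11 (SE, adjusted p = 2.0e-05) in AA, so that it lay below 0 at every stage.

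**Figure D4:**
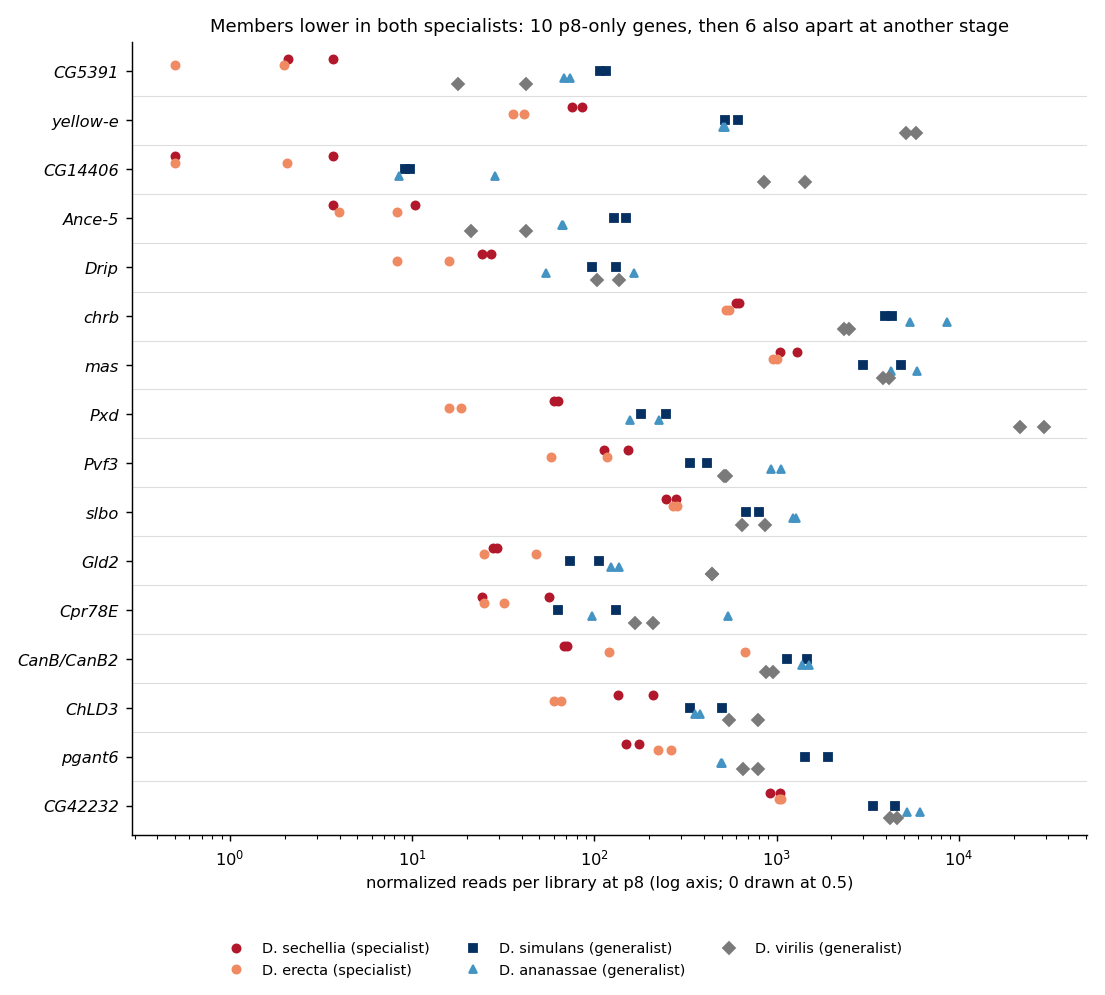
Normalized reads per library at p8 (log axis) for named genes lower in both specialists, with 10 p8-only genes at the top and 6 genes also apart at another stage below. Each point is 1 of the 2 libraries of a species, the circles being specialists, and a library at 0 is drawn near the left edge; in each gene drawn, every specialist library lay below every generalist library.

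Of the 17 lower genes that were also apart at another stage, Gld2, Cpr78E, CanB/CanB2, ChLD3 and pgant6 had the largest gaps among names other than CG numbers. Gld2, a cytoplasmic poly(A) polymerase, had 24.8 to 47.8 in the 4 specialist libraries, against 73.1 to 445 in the 6 generalist libraries, and was also apart at 3L. The value shared by CanB and CanB2, calcineurin subunits, was 68.5 and 70.9 for D. sechellia, 671 and 119.9 for D. erecta, against 1143 and 1477 for D. simulans, 1499.5 and 1388 for D. ananassae and 880.0 and 959.5 for D. virilis, with a wide spread between the D. erecta libraries and a gap as low as 1.37-fold with 1 library left out. ChLD3, a chitin-binding protein gene, had 59.9 to 211 in the 4 specialist libraries, against 337 to 789 in the 6 generalist libraries at p8. ChLD3 was apart in the same direction at 3L and not at p40, where its means were 9798 in D. sechellia and 7680.1 in D. erecta, against 4784 in D. simulans, 1603 in D. ananassae and 220.4 in D. virilis. pgant6, a mucin-type glycosyltransferase, had 150.1 to 263 in the 4 specialist libraries, against 496 to 1907 in the 6 generalist libraries, and was also apart at p40, with 197 in D. sechellia and 321 in D. erecta, against 1776 in D. simulans, 693 in D. ananassae and 1941 in D. virilis. By the rule, 0.873% of all genes compared were lower. Of 12 hemocyte markers compared, vkg, a collagen IV chain and p8-only, was the only member, at 1173 to 1889 in the 4 specialist libraries, against 3510.3 to 4974 in the 6 generalist libraries. With 1 library left out the log2 gap fell to as little as 0.91 for Gld2, 0.81 for ChLD3, 0.93 for pgant6 and 0.93 for vkg. The 12 hemocyte markers above 0 in all species summed to 10750 to 15382 in specialist libraries and 13739 to 18322 in generalist libraries. Of 3 salivary gland markers compared, the p8-only value shared by Eig71Eb and Eig71Ec was a member, and its libraries overlapped between the groups, at 62.9 to 217 in the 4 specialist libraries, against 188 to 687 in the 6 generalist libraries. The hemocyte markers He and PPO1 were at 0 in some species, and ng1, ng2 and ng3 of the salivary gland were at 0 in all. The part of these tissues was not tested. No member was found among 32 genes of cell division, 69 cytoplasmic and 63 mitochondrial ribosomal proteins, 24 axon guidance genes, 18 glutathione and glucuronosyl transferases, and 6 fat body and 6 tracheal markers compared.

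The same contrast was then tested at the other stages, whose values did not choose the genes but did split off the p8-only ones. The limma contrast on log2(value + 1), adjusted over all genes tested, used the spread between the libraries of a species, so it compares these species and not ecologies. At 3L, 57 of 75 higher genes tested were again higher and 6 lower, against the background of 34.9% and 33.0%. At p40 69 of 91 were again higher and 5 lower, against 35.2% and 32.2% of all genes tested. In AA 65 of 84 were again higher and 6 lower, against 33.5% and 32.4%. The median log2 difference of the higher genes was 2.06 at 3L, 1.84 at p40 and 1.72 in AA, where that of all genes tested was 0.00080, 0.038 and 0.016. Among the p8-only higher genes, a class that these stages helped to define, 19 of 35 tested were higher and 6 lower at 3L. At p40 25 of 44 were higher and 5 lower, and in AA 27 of 44 were higher and 5 lower.

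Of the lower genes, 37 of 56 tested at 3L were again lower and 10 higher, against 33.0% lower and 34.9% higher of all genes tested. At p40, 31 of 60 were again lower and 17 higher, against 32.2% and 35.2%. The 17 opposite calls at p40 were thus near the share of all genes. In AA 33 of 44 were again lower and 6 higher, against 32.4% and 33.5%. Their median log2 difference was -0.93 at 3L, -0.52 at p40 and -0.78 in AA. Among the p8-only lower genes, a class that these stages helped to define, 23 of 40 tested were lower and 9 higher at 3L. At p40 17 of 43 p8-only lower genes were lower and 15 higher, with a median log2 difference of -0.24. In AA 23 of 32 were lower and 5 higher. The difference between the higher and lower genes in this respect was not tested.

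**Figure D5:**
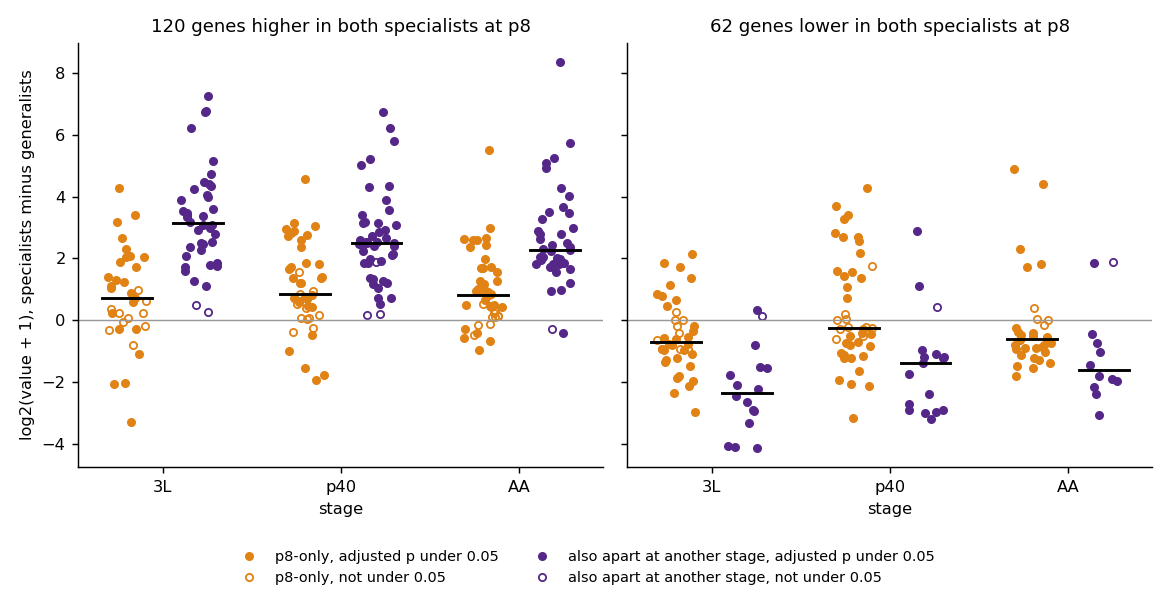
Limma log2 difference, specialists minus generalists, of log2(value + 1) at 3L, p40 and in AA for the genes higher (left) and lower (right) in both specialists at p8. Each point is 1 gene, filled where the adjusted p is under 0.05, and black bars are medians of the p8-only genes (orange) and of those also apart at another stage (purple), classes that these stages helped to define; medians of the higher genes lie above 0 and those of the lower genes below 0 at every stage, with genes of the opposite sign in both panels.

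By the p8 rule itself, 36 of 82 higher genes compared at 3L were apart in the same direction, against 1.37% of all genes compared. At p40 it was 28 of 91, against 2.89%, and in AA 25 of 94, against 1.14%. Of the lower genes, 12 of 56 were apart at 3L, 5 of 60 at p40 and 4 of 45 in AA, against 1.16%, 1.81% and 0.569%. Without any fold minimum, the species means of the groups did not overlap, in the same direction, for 49 higher genes at 3L, 54 at p40 and 42 in AA, where the background was 13.3%, 17.1% and 10.4%. For lower genes it was 25, 22 and 16, where the background was 12.2%, 16.6% and 9.74%. Among p8-only genes, which the rule had already emptied of 2-fold gaps elsewhere, the means did not overlap for 8 of 35 higher genes at 3L, 15 of 44 at p40 and 6 of 47 in AA. For p8-only lower genes it was 12 of 40, 11 of 43 and 9 of 33.

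The tables also list a mean for D. melanogaster, a generalist whose libraries are not analysed here, which served as a species the rule did not use. Of the 120 higher genes, 107 had a single name and a D. melanogaster mean above 0. This mean lay at or below the highest of the 3 generalists for 49 of them, at or above the lower specialist for 21, and inside the gap for 37. Of the 56 lower genes with such a value, D. melanogaster was on the generalist side for 14, on the specialist side for 28 and inside the gap for 14. Thus tll had a D. melanogaster mean of 72.2, CG5162 of 32.8 and yki of 1132, on the side of the generalists. Ir75a with 219.9, Cpr100A with 110086 and onecut with 727 lay on the side of the specialists. Among lower genes, chrb with 8585, Pvf3 with 1264 and CG42232 with 9513 lay on the side of the generalists. yellow-e with 8.19, slbo with 32.6 and Pxd with 5.81 lay on that of the specialists. When D. melanogaster was added to the rule as a further generalist, 71 higher and 18 lower genes were apart, of which 71 and 17 were among those described here.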

How the data were processed

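The authors trimmed adaptors from paired reads, mapped them with BWA 0.7.8 (base calls by CASAVA 1.8) to the FlyBase transcriptome of each species, joined species by FlyBase orthologs, kept the highest expressed transcript of several, and normalized with DESeq2. The deposited signal is the authors' mean normalized read count per species and stage, in 24 columns; the 4 D. melanogaster columns have no library here and were used as the authors' means. Values are not divided by length, and a 0 may be a missing ortholog. Gene models differ between species, which a fold change between species includes.

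Gene names listing the same 5 values were counted as 1 gene, so 7332 names became 7102 genes at p8. Since each mean combines whole reads of 2 libraries scaled by size factors, the reads of each library could be recovered: all values at p8 and p40, 96.4% to 99.6% of those above 0 at 3L and 97.3% to 99.4% in AA. In simulated data 99.2% of 26407 values at 10 digits and 100% of 26923 at 15 digits were resolved, all correctly. Unresolved genes were left out of limma (341 at 3L, 287 in AA). Depth at 3L and in AA is not known in full. limma 3.58.1 (R 4.3.3) was fitted to log2(value + 1) with a term per species, and tested on simulated data. Python 3.11.15, numpy 2.4.6, pandas 2.3.3 and matplotlib 3.10.9 were used.

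Named genes were, per direction, the 8 p8-only genes and 8 genes also apart elsewhere with the largest gaps among names other than CG or CR numbers, the 3 largest gaps of all, up to 8 genes apart at all 4 stages, and up to 3 members of each list; others were named after their values were seen. The members and lists were chosen with earlier results of these data known. Alternatives were other folds, minimums, pseudocounts and scalings, leaving out species or libraries, and adding D. melanogaster; the check on even read counts was added after seeing the data.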

Additional observations from a re-analysis of the deposited data

Results flagged for a closer look

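Several genes separated the specialists from the generalists one way at p8 and the other way, again by 2-fold or more, at another stage. The change between stages was not tested, and the values that follow are limma log2 differences, specialists minus generalists, at the other stage. CG10026, higher in both specialists at p8, had a difference of -1.56 at p40, where its means were 171 in D. sechellia and 149 in D. erecta, against 586 in D. simulans, 429 in D. ananassae and 396 in D. virilis. yellow-e, lower at p8, had a difference of 3.27 at p40, with means of 3449 in D. sechellia and 3356 in D. erecta, against 1279 in D. simulans, 1411 in D. ananassae and 21.5 in D. virilis. amd, a decarboxylase relative needed for cuticle, was lower at p8, with 78.6 to 303 in the 4 specialist libraries, against 661 to 1989 in the 6 generalist libraries. It had a difference of 4.27 at p40 and 4.88 in AA, and its p40 means were 2444 in D. sechellia and 4327 in D. erecta, against 985 in D. simulans, 482 in D. ananassae and 11.2 in D. virilis. Cpr66D, lower at p8, had a difference of 2.68 at p40 and 4.40 in AA. CG9095, lower at p8, had a difference of 1.73 at 3L and 1.72 in AA, with 3L means of 509 in D. sechellia and 758 in D. erecta, against 225 in D. simulans, 249.9 in D. ananassae and 115 in D. virilis.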

How the results depend on the processing

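The rule gave 120 higher and 62 lower genes, with 66 and 45 of them p8-only. At a fold of 1.5 these counts were 246 and 169 (133 and 110 p8-only), and at a fold of 3 they were 62 and 18 (33 and 15). With a level above 50 in all 5 species they were 41 and 39, with 31 higher p8-only genes. Fewer generalists widen the rule by construction. Without D. simulans it kept 269 and 171 (116 and 96), without D. ananassae 219 and 94 (120 higher p8-only), and without D. virilis 337 and 281 (101 and 140). With D. melanogaster added it kept 71 and 18 genes, with 12 lower p8-only. A minimum of 200, pseudocounts of 1 and 10 and rescaled species moved no count by over 1.5 times. Leaving out 1 p8 library gave 107 to 132 higher and 53 to 71 lower genes, with 59 to 79 and 36 to 53 p8-only. The limma counts of higher genes ran from 52 to 57 at 3L, 66 to 72 at p40 and 60 to 67 in AA when 1 library was left out, and those of lower genes from 34 to 38, 28 to 34 and 30 to 33. Of 54 named genes, 12 had a gap under 2-fold when 1 library was left out: CanB/CanB2, Eig71Eb/Eig71Ec, Hsp70, bt, Cpr78E, Mf, onecut, ChLD3, Cpr66D, Gld2, pgant6 and vkg. The lowest was 1.34-fold. The limma counts stayed within 1.5 times under every alternative run. No named gene changed direction under the alternatives run. No paired analysis was possible because the recovered libraries carry no replicate numbers. Counts of few reads limit the gaps of scarce genes: with a pseudocount of 10 the log2 gap was 3.58 for CG18558, 2.77 for Ir75a, 2.50 for KCNQ and 1.64 for CG5391.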

Other observations

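Some members lay outside the lists and the naming rule and were chosen after their values were seen. The higher ones included nompC, nan, Gas8 and Zmynd10, genes of mechanosensory neurons and their cilia, a class whose share of members was not counted. nompC, a mechanotransduction channel, had 1205 and 1259 for D. sechellia, 155 and 161 for D. erecta, against 4.20 and 3.05 for D. simulans, 14.5 and 44.7 for D. ananassae and 3.25 and 6.77 for D. virilis at p8, and nan, a channel subunit of chordotonal neurons, had 38.9 to 83.7 in the 4 specialist libraries, against 6.09 to 18.6 in the 6 generalist libraries. Gas8 and Zmynd10, genes of ciliary motility, had 91.6 to 146 in the 4 specialist libraries, against 28.8 to 58.8 in the 6 generalist libraries, and 185 to 279 in the 4 specialist libraries, against 94.2 to 112 in the 6 generalist libraries. In adult antennae nompC and Gas8 were apart in the same direction, and nan and Zmynd10 were not. Ilp8, an insulin-like hormone of growing discs, had 26.9 to 242 in the 4 specialist libraries, against 3.38 to 12.5 in the 6 generalist libraries at p8, and means of 20137 in D. sechellia and 51069.9 in D. erecta, against 21.6 in D. simulans, 6.24 in D. ananassae and 8.49 in D. virilis in AA, where its libraries were not all resolved and limma gave no test. sals and Unc-89, genes of the sarcomere, had 1462 to 1893 in the 4 specialist libraries, against 97.2 to 491 in the 6 generalist libraries, and 130.2 to 339.8 in the 4 specialist libraries, against 3.41 to 113 in the 6 generalist libraries.

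Among the lower members, Pvf1, a relative of Pvf3, had 69.4 to 101 in the 4 specialist libraries, against 169.5 to 386 in the 6 generalist libraries. Papss, which makes the sulfate donor of the cell, had 260.5 to 527 in the 4 specialist libraries, against 759.8 to 3295 in the 6 generalist libraries, and the glucuronyltransferase gene GlcAT-S had 215 to 281 in the 4 specialist libraries, against 456 to 2049.9 in the 6 generalist libraries. At p40 the Papss means were 2276 in D. sechellia and 8002 in D. erecta, against 2422 in D. simulans, 1120.4 in D. ananassae and 1494 in D. virilis, so that D. erecta was then the highest. ITP, an ion-transport peptide, had 69.7 to 99.9 in the 4 specialist libraries, against 178 to 431 in the 6 generalist libraries. In D. melanogaster ITP was at 844, Papss at 45.2 and nompC at 107.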
